A study of Mus musculus with 30 samples.

Results

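The 10 genes described here encode alcohol dehydrogenases (Adh1, Adh4, Adh5), aldehyde dehydrogenases (Aldh1a1, Aldh1a7, Aldh1b1, Aldh2, Aldh3a2) and aldehyde oxidases (Aox1, Aox3). They were chosen with earlier results of these data known, so the shares of them called below are a description. They were taken by gene symbol, and all 10 were present in both deposited tables, which hold 14173 genes. All 10 also passed the filter on low counts in each comparison. Liver RNA came from 30 male C57BL6/J mice aged 6 months, 6 for each of 5 diets, which were fed for 12 weeks from 12 weeks of age. The Cas-20% diet held 20% casein with 0.57% methionine and 0.41% cysteine by weight, and the Cas-5% diet held 5% casein with 0.15% and 0.1%. The Soy-20% diet held 20% soy protein with 0.22% of each sulfur amino acid. The Soy-20% + SAA diet was that diet with both amino acids raised to 0.58% methionine and 0.41% cysteine, close to Cas-20%. The Soy-10% diet held 11.5% soy protein with 0.13% of each, so that its methionine was near that of Cas-5%. Total protein fell together with the sulfur amino acids in Cas-5% and in Soy-10%, so these cannot be told apart within those comparisons. Mice of the casein diets had been acclimated on Cas-20% and mice of the soy diets on Soy-20%, so protein source and acclimation diet also cannot be told apart. Casein was cut to 5% but soy protein only to 11.5%. Where the restrictions or the restricted diets are compared, protein source and depth of the cut cannot be told apart either. All mice were fasted before the livers were taken. Each liver gave 1 library of reads from the 3′ ends of mRNAs, and the totals ran from 7694015 to 14565542 counts with a median of 10803734.

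These enzymes work in series. Alcohol dehydrogenases oxidize alcohols to aldehydes with NAD, and aldehyde dehydrogenases oxidize the aldehydes to acids. This is the route that turns ethanol into acetaldehyde and then acetate, and related steps turn retinol into retinal and retinoic acid. Aldehyde oxidases are cytosolic molybdenum-flavin enzymes that use oxygen to oxidize aldehydes and nitrogen-containing rings, drugs among them. The liver is a main site of these activities. In a bulk liver sample, fewer cells of one type and less RNA per cell cannot be told apart. The summed level of 7 hepatocyte markers ran from 66609 to 95295 CPM (counts scaled to the library total) over all livers.

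The genes lie in 3 neighbourhoods and 3 single places of the mouse genome (GRCm38). Adh1 (chr3:138260991-138290698), Adh4 (chr3:138415466-138430892) and Adh5 (chr3:138443093-138455499) form a row on chromosome 3. Aox1 (chr1:58029931-58106413) is followed by Aox3 (chr1:58113130-58200698). Aldh1a1 (chr19:20492715-20643465) is followed by Aldh1a7 (chr19:20692953-20727562). Aldh1b1 (chr4:45799022-45804604), Aldh2 (chr5:121566027-121593824) and Aldh3a2 (chr11:61223417-61267464) stand alone. For none of the 10 did the last 500 bases of the longest transcript share a stretch of 50 bases with another gene of GENCODE M21, so 3′ reads of the near relatives Aldh1a1 and Aldh1a7 were separable by sequence in that region.

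The promoters shown are those of the genes with the largest opposite changes, Aox1 and Aldh1b1, and of the neighbours Aldh1a1 and Aldh1a7, whose upstream sequences are alike. Each runs from 250 bases before to 50 bases after a transcription start, 5′ to 3′ on the strand of the gene, from RefSeq annotation of GRCm38.p6. Positions are chr1:58029719-58030018 (plus strand) for Aox1, chr4:45798772-45799071 (plus strand) for Aldh1b1, chr19:20601718-20602017 (plus strand, the downstream of 2 start sites) for Aldh1a1 and chr19:20727507-20727806 (minus strand) for Aldh1a7. Capitals mark the CCAAT box, which reads ATTGG on the other strand, in Aox1 and Aldh1b1. In Aldh1a1 and Aldh1a7 they mark the longest run of letters that both share, 65 bases.
Aox1: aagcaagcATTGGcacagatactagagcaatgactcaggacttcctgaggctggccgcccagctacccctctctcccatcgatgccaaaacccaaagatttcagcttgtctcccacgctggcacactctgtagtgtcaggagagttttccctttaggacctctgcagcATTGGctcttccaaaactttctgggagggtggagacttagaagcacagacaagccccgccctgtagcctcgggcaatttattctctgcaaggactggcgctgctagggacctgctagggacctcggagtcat
Aldh1b1: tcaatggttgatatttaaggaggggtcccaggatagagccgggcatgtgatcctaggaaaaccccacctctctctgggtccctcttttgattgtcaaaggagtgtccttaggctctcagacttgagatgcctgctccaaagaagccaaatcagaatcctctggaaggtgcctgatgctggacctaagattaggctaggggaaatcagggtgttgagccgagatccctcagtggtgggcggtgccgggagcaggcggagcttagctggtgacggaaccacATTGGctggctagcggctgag
Aldh1a1: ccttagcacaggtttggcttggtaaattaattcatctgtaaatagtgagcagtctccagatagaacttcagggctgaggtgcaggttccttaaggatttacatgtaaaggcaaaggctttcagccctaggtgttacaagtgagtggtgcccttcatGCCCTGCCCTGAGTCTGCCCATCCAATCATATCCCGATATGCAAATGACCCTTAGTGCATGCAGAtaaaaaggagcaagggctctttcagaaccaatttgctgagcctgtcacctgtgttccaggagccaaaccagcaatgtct
Aldh1a7: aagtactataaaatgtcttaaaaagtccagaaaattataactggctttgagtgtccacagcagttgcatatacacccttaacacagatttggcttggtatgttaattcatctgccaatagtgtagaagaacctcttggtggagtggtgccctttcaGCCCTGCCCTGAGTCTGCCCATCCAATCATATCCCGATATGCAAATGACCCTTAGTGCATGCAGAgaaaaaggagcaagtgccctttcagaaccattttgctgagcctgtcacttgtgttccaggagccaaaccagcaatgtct

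The promoters of Aldh1a1 and Aldh1a7 were identical at 224 of 318 aligned columns (70.4%), whereas those of the neighbours Aox1 and Aox3 were identical at 46.6%, close to the 46.3% of the unrelated pair Aox1 and Aldh1b1. RefSeq promoters were matched for 9 of the 10 genes, with 11 start sites in all. A CCAAT box on either strand was found in 7 of these 11, against 37.4% of all 32817 promoters of the same length. The letters TGACNNNGC, a form of the antioxidant response element, were in 0 of the 11 and in 12.4% of all promoters. The letters TGATGNAA, a form of the amino acid response element, were in 0 of the 11 and in 3.97% of all. Each was searched on both strands, no letters of one motif spell another, and a missing match says only that these letters are not in these windows.

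Libraries 3 to 6 of Soy-20% + SAA stood apart from the others. In each library the counts of 11967 genes were compared with their mean over all livers, and the slope of that log2 ratio on the GC content of the transcript end was taken. It was 0.058, 0.182, 0.175 and 0.201 log2 units per 10% GC in libraries 3 to 6 of Soy-20% + SAA, -0.029 and -0.026 in libraries 1 and 2, and between -0.059 and 0.023 in the 24 livers of the other diets. Calls that rest on this diet are followed by the values, or the count of genes called, without these 4 libraries. That leaves 2 livers of that diet.

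**Figure D1:**
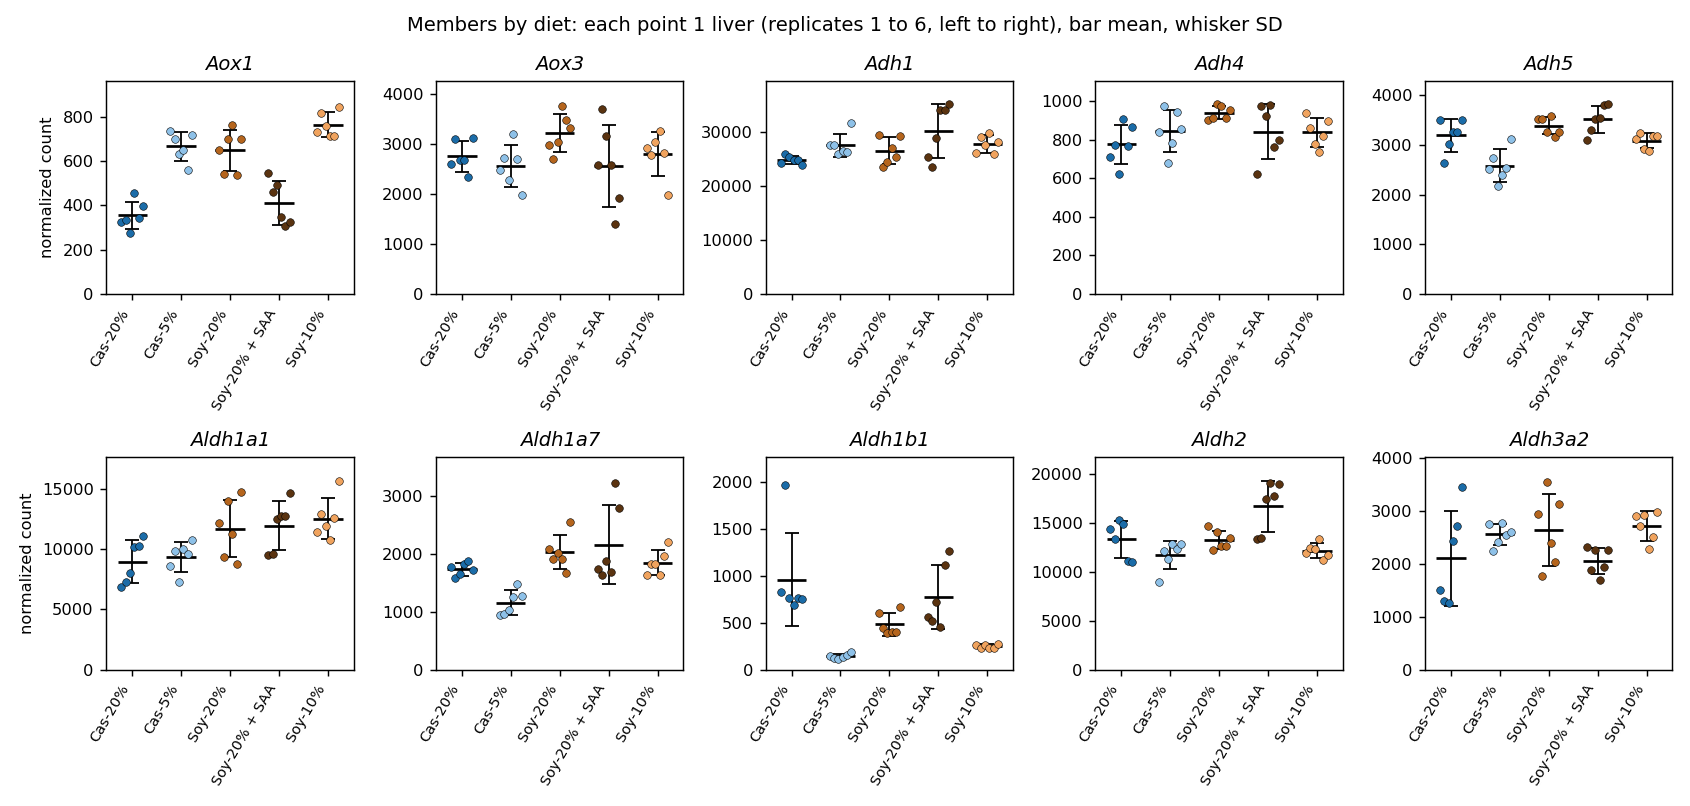
Normalized counts (vertical axes, from 0) of the 10 genes in the 5 diets (horizontal axes). Each point is 1 liver, in replicate order from left to right, and bars and whiskers are the mean and SD of 6 livers. Mean Aox1 was highest in Soy-10%, with Cas-5% and Soy-20% next at 666 and 649, within the larger SD of each other. Aldh1b1 was lowest in Cas-5% and Soy-10%. The spread within a diet was wide for Aldh3a2 in Cas-20% and for Aldh1b1 in Cas-20% and Soy-20% + SAA.

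Across the 5 diets in one fit of 30 livers, 6 of the 10 genes differed at an adjusted p of 0.05 or less (edgeR quasi-likelihood F test, Benjamini-Hochberg adjustment over all genes), while 43.4% of the 12561 genes tested did. These were Aldh1b1, Aox1, Aldh1a7, Adh5, Aldh2 and Aldh1a1. Adh1, Adh4, Aox3 and Aldh3a2 did not pass, with edgeR adjusted p of 0.068, 0.18, 0.29 and 0.16. Without Soy-20% + SAA libraries 3 to 6, 5 of the 10 genes passed this test. With the GC slope as a covariate 5 passed as well. The diet means of Adh1 lay between 24887 normalized counts in Cas-20% and 30205 in Soy-20% + SAA, those of Adh4 between 775 and 940, and those of Aox3 between 2560 and 3216. For each of these 3 genes, every step in the order of the diets was within the larger SD of the neighbouring diets.

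Restriction on casein had the highest share of genes called among the 6 pairwise comparisons. Cas-5% livers held less Aldh1b1, Aldh1a7 and Adh5 and more Aox1 than Cas-20% livers. Thus 4 of the 10 genes passed the test, 1 higher and 3 lower, against 24.9% of the 12076 genes tested (11.6% higher and 13.3% lower). The median log2 fold change of the 10 genes was 0, and that of all genes was 0.02. Aldh1b1 alone also passed the criterion of a log2 fold change of at least 1 in size, which 3.48% of genes met. No value overlapped between the diets for Aox1, Adh1, Aldh1a7 and Aldh1b1, as was the case for 12.9% of all genes.

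Aldh1b1 encodes a mitochondrial aldehyde dehydrogenase closely related to Aldh2. Its normalized counts in Cas-20% livers were 691 at the lowest, 765 at the median and 1971 at the highest. In Cas-5% livers the lowest was 115, the median 144 and the highest 190. Every Cas-5% liver was thus below every Cas-20% liver, and the highest Cas-20% value was that of liver 2 alone, the other 5 lying between 691 and 826. Aldh1b1 fell by 2.69 ± 0.24 (SE) on the log2 scale, a change of -84.6%, with an edgeR adjusted p of 6.9e-07. Without Cas-20% liver 2, whose library had the highest GC slope outside Soy-20% + SAA, 0.023, the difference was -2.36 ± 0.1 with an edgeR adjusted p of 5.3e-10.

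Aox1 went the other way. The lowest, median and highest normalized counts were 276, 338 and 455 in Cas-20% and 558, 676 and 735 in Cas-5%. The diets were fully apart, and the rise of Aox1 was 0.92 ± 0.11 log2 units (1.89-fold, edgeR adjusted p = 7.9e-06). Aox3, the aldehyde oxidase encoded next to it, had a mean of 2754 ± 304 (SD, n = 6) in Cas-20% and 2563 ± 420 in Cas-5%. Its livers overlapped between the diets, and its log2 fold change was -0.09 ± 0.1 (edgeR adjusted p = 0.57).

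Aldh1a7 is a rodent relative of the retinal-oxidizing cytosolic enzyme Aldh1a1. Values ran from 1578 over a median of 1748 to 1869 normalized counts in Cas-20% and from 948 over 1147 to 1476 in Cas-5%. All Cas-5% livers were lower, and Aldh1a7 fell by 0.57 ± 0.1 on the log2 scale (-32.5%, edgeR adjusted p = 0.00052). Aldh1a1 had means of 8947 ± 1791 and 9361 ± 1229 in the same livers, with a log2 fold change of 0.08 ± 0.12 that did not pass (edgeR adjusted p = 0.68). The difference between these neighbours was not itself tested.

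Among the alcohol dehydrogenases the changes were small. Adh5, the glutathione-dependent formaldehyde dehydrogenase that also reduces S-nitrosoglutathione, ranged from 2639 over 3261 to 3504 normalized counts in Cas-20% and from 2179 over 2537 to 3129 in Cas-5%. The ranges overlapped, and Adh5 fell by 0.29 ± 0.09 on the log2 scale (-18.2%, edgeR adjusted p = 0.026). Without Cas-20% liver 6, Cas-5% liver 3 or Cas-5% liver 4 its edgeR adjusted p was 0.051, 0.06 and 0.058. Adh1, the main hepatic enzyme for ethanol and retinol, ran from 23982 to 25879 in Cas-20% and from 26050 to 31732 in Cas-5%. Those values did not overlap, yet the difference of 0.16 ± 0.07 log2 units did not pass the test (edgeR adjusted p = 0.094), although DESeq2 called it (adjusted p = 0.041). Adh4, another hepatic alcohol dehydrogenase, differed by 0.14 ± 0.1 log2 units (edgeR adjusted p = 0.34).

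Aldh2, the mitochondrial enzyme that clears acetaldehyde, had a log2 fold change of -0.17 ± 0.11 between Cas-5% and Cas-20% (edgeR adjusted p = 0.26). Aldh3a2, the fatty aldehyde dehydrogenase, differed by 0.29 ± 0.2 log2 units (edgeR adjusted p = 0.32). Its Cas-20% livers were spread widely. Livers 1 to 3 of Cas-20% held 1511, 1294 and 1255 normalized counts of Aldh3a2 and livers 4 to 6 held 2442, 2716 and 3450, while Cas-5% livers all lay between 2241 and 2772. Aldh1a1 was split in the same livers, with 6818 to 8028 in livers 1 to 3 and 10180 to 11081 in livers 4 to 6. For Aldh2 the 2 lowest Cas-20% values, 11105 and 11006, were in livers 5 and 6. The labels give no batch that would separate these livers.

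Some marker lists of other cell types differed in this comparison too, where 11.6% of all genes were higher and 13.3% lower. Of the tested macrophage (6), biliary (2) and lymphocyte (1) markers 0 passed. The summed level of 7 stellate cell markers was 276 to 389 CPM in Cas-20% and 394 to 537 CPM in Cas-5%, with 2 of the 7 higher by the same test. For 6 endothelial markers it was 254 to 289 and 320 to 349 CPM, with 1 of 6 higher, and 4 of 5 red blood cell markers were lower. Hepatocyte markers summed to 66609 to 74671 CPM in Cas-20% and 78125 to 95295 CPM in Cas-5%, with 2 of 7 higher and 3 lower. The median log2 fold change of these 7 was -0.18, although their sum was higher. The part of these differences in the results above was not tested.

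**Figure D2:**
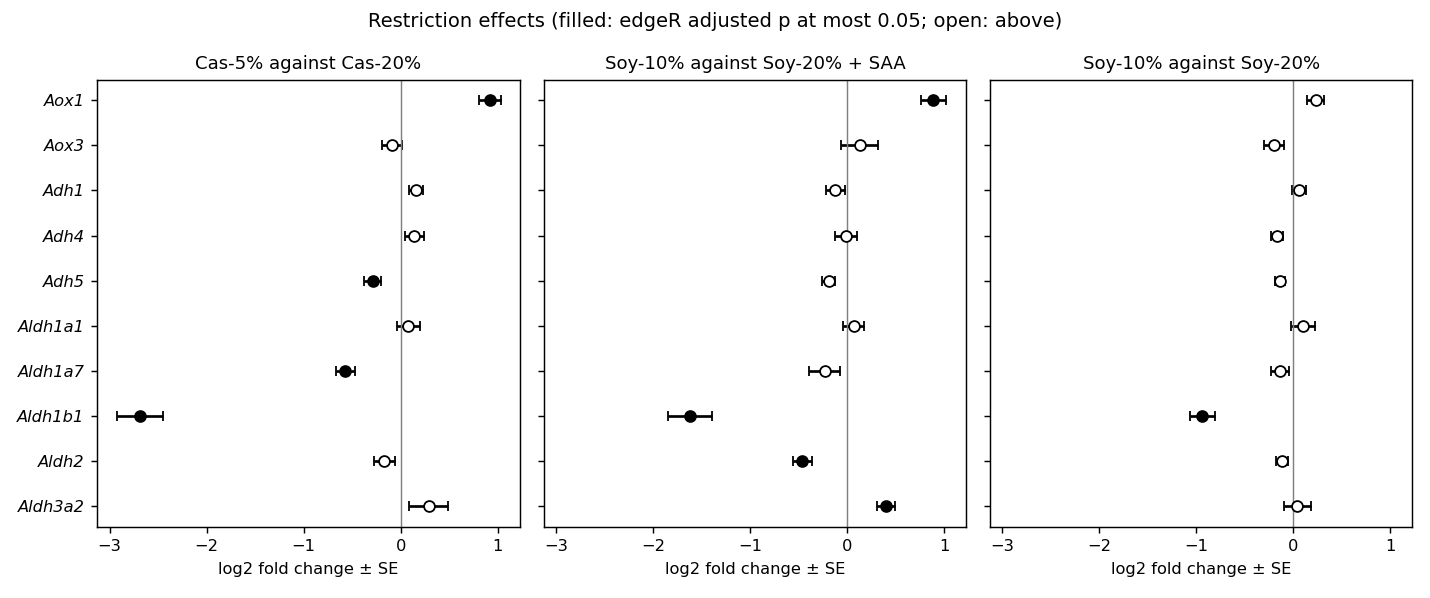
Log2 fold change (horizontal axes, points) with its SE (whiskers) for the 10 genes (rows) in 3 restriction comparisons, 6 livers per diet. Filled points had an edgeR adjusted p of at most 0.05. Aox1 rose against both full-methionine controls and Aldh1b1 fell in all 3 panels.

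The soy diets allowed restriction to be compared with a control of matched protein source and full sulfur amino acids. Against Soy-20% + SAA, Soy-10% livers held more Aox1 and Aldh3a2 and less Aldh1b1 and Aldh2. Aldh1b1 was again the 1 gene of the 10 with a log2 fold change of at least 1 in size, met by 2.57% of genes. The 4 of 10 genes called, 2 in each direction, compare with 17% of 11983 genes (8.51% higher and 8.47% lower). The median log2 fold change was -0.07 over the 10 genes and -0.01 over all. Aox1 and Aldh1b1 had no overlap between the diets, as had 6.22% of genes. Without Soy-20% + SAA libraries 3 to 6 only Aox1 and Aldh1b1 still passed, beside 2.54% of all genes. The same 2 passed with the GC slope as a covariate, beside 3.26% of all genes.

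Aldh1b1 ranged from 452 over a median of 641 to 1265 normalized counts in Soy-20% + SAA and from 230 over 250 to 279 in Soy-10%. All Soy-10% livers were lower, and the 2 highest Soy-20% + SAA values, 1120 and 1265, were in libraries 5 and 6. Aldh1b1 fell by 1.62 ± 0.23 on the log2 scale (-67.5%, edgeR adjusted p = 7e-04). With libraries 1 and 2 alone as controls the difference was -1.11 ± 0.09 (edgeR adjusted p = 8.3e-05), and with the GC slope as a covariate it was -1.14 ± 0.22 (edgeR adjusted p = 0.011).

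Aox1 ranged from 305 over 404 to 547 normalized counts in Soy-20% + SAA and from 712 over 746 to 845 in Soy-10%. The diets were again fully apart, with a rise of 0.89 ± 0.13 log2 units (1.85-fold, edgeR adjusted p = 0.0011). Libraries 1 to 3 of Soy-20% + SAA held 547, 460 and 492 and libraries 4 to 6 held 348, 305 and 323. Against libraries 1 and 2 alone the rise was 0.59 ± 0.1 log2 units (edgeR adjusted p = 0.0073), and it was 0.57 ± 0.1 with the GC slope as a covariate (edgeR adjusted p = 0.0046). Aox3 spread from 1407 to 3694 in Soy-20% + SAA and from 1982 to 3262 in Soy-10%, with a log2 fold change of 0.13 ± 0.19 (edgeR adjusted p = 0.66).

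Aldh2 ranged from 13405 over 17627 to 19067 normalized counts in Soy-20% + SAA and from 11229 over 12144 to 13411 in Soy-10%. The ranges met only at their edges. Libraries 1 and 2 of Soy-20% + SAA held 13405 and 13521 and libraries 3 to 6 held 17506 to 19067. Over all 6 libraries Aldh2 fell by 0.46 ± 0.1 on the log2 scale (edgeR adjusted p = 0.0078). Without libraries 3 to 6 its log2 fold change was -0.15 ± 0.08 (edgeR adjusted p = 0.39), and with the GC slope as a covariate -0.19 ± 0.07 (edgeR adjusted p = 0.16).

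Aldh3a2 ranged from 1697 over 2102 to 2312 in Soy-20% + SAA and from 2277 over 2811 to 2975 in Soy-10%. One Soy-10% liver, with 2277, fell within the range of the controls. The rise was 0.4 ± 0.09 log2 units (edgeR adjusted p = 0.011). It was 0.36 ± 0.11 without libraries 3 to 6 (edgeR adjusted p = 0.12), 0.33 ± 0.11 with the GC slope (edgeR adjusted p = 0.13) and 0.4 ± 0.18 in the fit of all 30 livers (edgeR adjusted p = 0.11). None of these 3 passed the threshold.

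The remaining 6 genes did not pass. Adh5 had a log2 fold change of -0.19 ± 0.07 (edgeR adjusted p = 0.057, DESeq2 0.036), and Aldh1a7 had -0.23 ± 0.16 (edgeR adjusted p = 0.33). Aldh1a7 held 3227 and 2783 normalized counts in libraries 5 and 6 of Soy-20% + SAA and 1628 to 1884 in libraries 1 to 4. Adh1, Adh4 and Aldh1a1 differed by -0.12, -0.01 and 0.07 log2 units. Adh1 was also split by library, with 25324 and 23517 in libraries 1 and 2 of Soy-20% + SAA, 28965 in library 3 and 34057 to 35302 in libraries 4 to 6. Without libraries 3 to 6 the log2 fold changes were -0.06 ± 0.08 for Adh5, 0.12 ± 0.11 for Aldh1a7, 0.18 ± 0.08 for Adh1, 0.07 ± 0.14 for Adh4, 0.38 ± 0.12 for Aldh1a1 and -0.17 ± 0.16 for Aox3, and none passed. In the comparison with all libraries 1 of 6 endothelial and 1 of 6 macrophage markers were higher in Soy-10%, and 1 of 7 hepatocyte and 1 of 2 tested biliary markers were lower. Of all genes 8.51% were higher and 8.47% lower, and the marker counts were not taken without libraries 3 to 6. The part of these markers in the results was not tested.

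**Figure D3:**
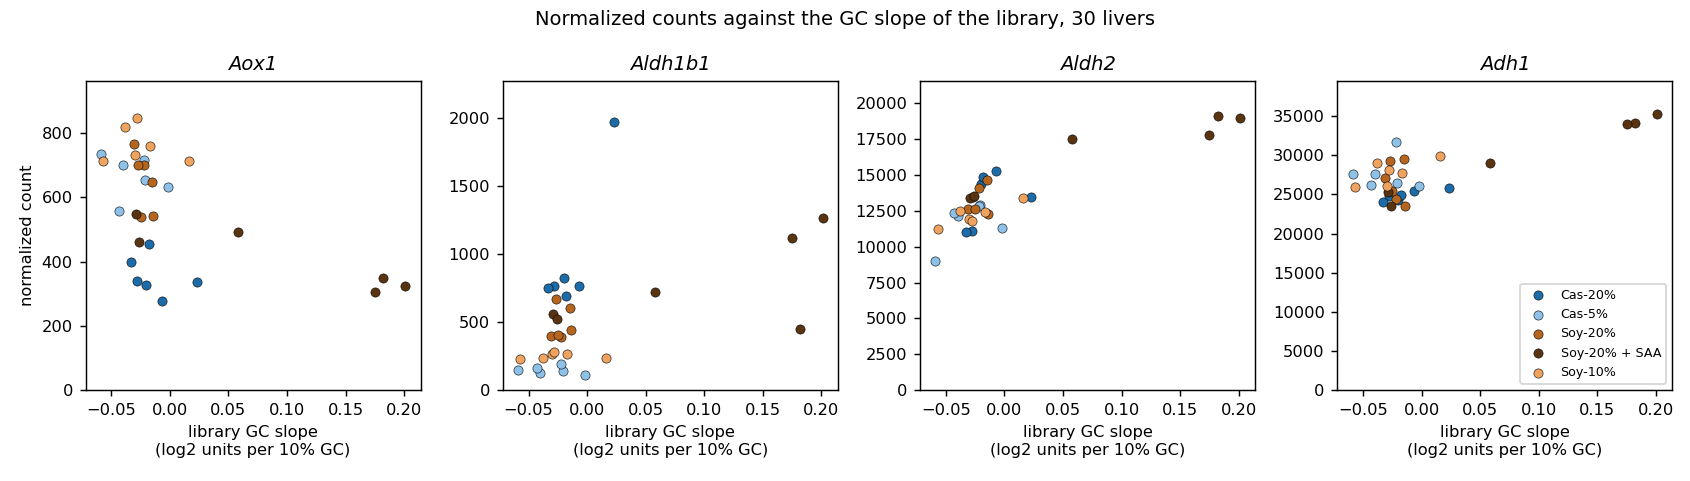
Normalized counts (vertical axes, from 0) of Aox1, Aldh1b1, Aldh2 and Adh1 against the GC slope of the library (horizontal axes, log2 units per 10% GC). Each of 30 points is 1 liver, coloured by diet. The 4 libraries on the right are Soy-20% + SAA 3 to 6, in which Aldh2 was between 17506 and 19067.

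Against unsupplemented Soy-20%, which had lower sulfur amino acids than Soy-20% + SAA, Soy-10% livers differed in Aldh1b1 alone among the 10 genes (0.866% of 11897 genes passed, 0.546% lower). The Soy-20% values ran from 388 over 423 to 672 normalized counts and were all above those of Soy-10%, a separation shown by 1.34% of genes. Aldh1b1 fell by 0.94 ± 0.13 on the log2 scale (-48%, edgeR adjusted p = 0.002). In the fit of all 30 livers the difference was -0.94 ± 0.24 and did not pass (edgeR adjusted p = 0.075). Aox1 ranged from 538 over 674 to 764 in Soy-20%, which overlaps Soy-10%, and its log2 fold change was 0.23 ± 0.09 (edgeR adjusted p = 0.25). This comparison and the preceding one share the Soy-10% livers. A biliary marker, 1 of 2 tested, was lower in Soy-10% here as well, and its part was not tested.

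Supplementation itself was the comparison of Soy-20% + SAA with Soy-20%. None of the 10 genes passed edgeR's test, while 4 had an unadjusted p below 0.05, as had 24.2% of all genes, and DESeq2 called 2, Aox1 and Aldh2. Over all genes 0.00838% passed in edgeR, a single gene of 11932. Aox1 had a log2 fold change of -0.66 ± 0.15 (edgeR adjusted p = 0.059) and Aldh1b1 one of 0.67 ± 0.24 (edgeR adjusted p = 0.12). For Aldh2 it was 0.32 ± 0.1 (edgeR adjusted p = 0.085) and for Aldh3a2 -0.37 ± 0.15 (edgeR adjusted p = 0.16). With libraries 1 and 2 alone for the supplemented diet, the values were -0.36 ± 0.14 for Aox1, 0.16 ± 0.2 for Aldh1b1 and 0.02 ± 0.1 for Aldh2, with edgeR adjusted p of 0.68, 0.9 and 0.98. All 3 were smaller than with the libraries that stood apart. Without library 1 or without library 2 of Soy-20% + SAA, by contrast, Aox1 and Aldh2 passed, with log2 fold changes of -0.76 and 0.38 (edgeR adjusted p of 0.0079 and 0.019) without library 1 and -0.7 and 0.38 (edgeR adjusted p of 0.028 and 0.034) without library 2.

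The diets with full sulfur amino acids had nearly equal methionine from different protein sources. Between Cas-20% and Soy-20% + SAA, edgeR called 0 of the 10 genes, 3 had an unadjusted p below 0.05 (26.2% of all genes) and DESeq2 called 0, while edgeR called 2.43% of 11988 genes. The differences nearest to the threshold were those of Aldh1a1 (-0.41 ± 0.14, edgeR adjusted p = 0.091), Adh1 (-0.28 ± 0.1, edgeR adjusted p = 0.11) and Aldh2 (-0.32 ± 0.12, edgeR adjusted p = 0.11). Without Soy-20% + SAA libraries 3 to 6 these were -0.1 ± 0.18 for Aldh1a1, 0.02 ± 0.09 for Adh1 and -0.02 ± 0.14 for Aldh2 (edgeR adjusted p of 0.93, 0.97 and 0.99). In that setting the 10 genes ran from -0.51 ± 0.16 for Aox1 to 0.82 ± 0.37 for Aldh1b1 (edgeR adjusted p of 0.57 and 0.69). Of 5 red blood cell markers, 4 were higher in Cas-20% (summed levels of 1393 to 3087 and 1061 to 1692 CPM), as were 2 of 7 hepatocyte markers, and their part was not tested. These marker counts include all libraries and were not taken without libraries 3 to 6.

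The restricted diets of both protein sources were compared in the same way. Cas-5% livers held less Aldh1b1, Aldh1a7, Aldh1a1 and Adh5 than Soy-10% livers, 4 of 10 genes and all lower, against 10.7% of 12041 genes (6.14% lower). Aldh1b1 fell by 0.76 ± 0.11 log2 units (-40.9%, edgeR adjusted p = 0.00017) and Aldh1a7 by 0.65 ± 0.1 (-36.3%, edgeR adjusted p = 6e-04). Both had no overlap between the diets, as had 5.86% of genes: the highest Cas-5% values were 190 and 1476 and the lowest Soy-10% values 230 and 1628. In the fit of all 30 livers Aldh1b1 did not pass (-0.77 ± 0.25, edgeR adjusted p = 0.06), nor did Aldh1a1, described next (edgeR adjusted p = 0.058).

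Aldh1a1 ranged from 7299 over 9724 to 10783 normalized counts in Cas-5% and from 10765 over 12242 to 15599 in Soy-10%. It was lower in Cas-5% by a log2 fold change of -0.4 ± 0.1 (edgeR adjusted p = 0.011), with the highest Cas-5% liver only just above the lowest Soy-10% liver. Adh5 was lower by -0.24 ± 0.07 (edgeR adjusted p = 0.0496), a call at the edge of the threshold that was kept in 7 of 18 alternative settings and lost when any 1 of 10 of the 12 livers was left out (edgeR adjusted p of 0.057 to 0.11, livers 6 of Cas-5% and 4 of Soy-10% excepted). The Aox1 medians were 676 and 746, and its difference of -0.18 ± 0.07 did not pass (edgeR adjusted p = 0.12). Of 7 stellate cell markers, 5 were higher in Cas-5% than in Soy-10%, beside 10.7% of all genes called in either direction. Their summed levels were 394 to 537 and 328 to 386 CPM, and their part in these results was not tested.

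Whether the casein and soy restrictions differed in effect was tested by subtracting the soy effect from the casein effect, with Soy-20% + SAA as the soy control. The protein cut was deeper on casein, so this difference does not separate protein source from depth of the cut. In edgeR 0 of the 10 genes passed, 2 had an unadjusted p below 0.05 (26% of all genes) and DESeq2 called 1, while edgeR called 8.69% of 12532 genes. Aldh1b1 was at the threshold, with a difference of -1.08 ± 0.35 log2 units (edgeR adjusted p = 0.0534). Its adjusted p ran from 0.00047 to 0.089 over 32 alternative settings, 10 of which called it. Without Soy-20% + SAA libraries 3 to 6 the difference was -1.59 ± 0.36 (edgeR adjusted p = 0.018), and Aldh1a7 passed too, with -0.7 ± 0.17 (edgeR adjusted p = 0.028) in place of -0.34 ± 0.2. Without Cas-20% liver 2 the Aldh1b1 difference was -0.74 ± 0.27 (edgeR adjusted p = 0.088). Taking Soy-20% for control gave -1.76 ± 0.3 for Aldh1b1 (edgeR adjusted p = 0.00047), and Aox1 then also passed, with 0.68 (edgeR adjusted p = 0.0034). With Soy-20% + SAA as control and all libraries, the casein minus soy effect of Aox1 was 0.03 ± 0.18 (edgeR adjusted p = 0.95). The soy rise in that difference was itself smaller without libraries 3 to 6, 0.59 ± 0.1 log2 units, as given above.

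The diets can be ordered by the mean level of each gene that passed the test over all 5 diets with all libraries. Aldh1b1 had a mean of 961 ± 497 normalized counts (SD, n = 6) in Cas-20%, 774 ± 339 in Soy-20% + SAA, 485 ± 122 in Soy-20%, 252 ± 21.6 in Soy-10% and 146 ± 27 in Cas-5%. The first 3 were within the larger SD of their neighbour, and the last 3 did not overlap with each other. With libraries 1 and 2 alone, Aldh1b1 in Soy-20% + SAA differed from Soy-20% by 0.16 ± 0.2 log2 units, as given above. The order of Aox1 was 763 ± 56.3 in Soy-10%, 666 ± 65.2 in Cas-5%, 649 ± 92 in Soy-20%, 412 ± 100.0 in Soy-20% + SAA and 355 ± 62.4 in Cas-20%. Cas-5% and Soy-20% were within the larger SD, as were the last 2. The diets with full sulfur amino acids were thus the highest for Aldh1b1 and the lowest for Aox1. Aldh1a7 and Adh5 were lowest in Cas-5%, and for Aldh1a7 Cas-5% did not overlap with any other diet. Aldh2 had means of 16701 in Soy-20% + SAA, 13344 in Cas-20%, 13271 in Soy-20%, 12190 in Soy-10% and 11753 in Cas-5%. Libraries 1 and 2 of Soy-20% + SAA held 13405 and 13521, close to the next means. Aldh1a1 had means of 12527 in Soy-10%, 11943 in Soy-20% + SAA, 11690 in Soy-20%, 9361 in Cas-5% and 8947 in Cas-20%, each within the larger SD of the next.

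Levels of some of the genes moved together over livers, which is given as a description. Pearson's r of log2 CPM between Aox1 and Aldh1b1 was -0.8 over the 30 livers, which share diets, but -0.31 within diets, and -0.1 within diets over the 24 livers without Soy-20% + SAA. Aldh1a1 and Aldh3a2 had an r of 0.65 over all livers, 0.71 within diets and 0.8 within diets without Soy-20% + SAA. Aldh1a1 and Aldh1a7 had 0.55, 0.61 and 0.67. The 2 latter pairs were thus alike in livers on the same food as well as over all livers pooled. No r between diet means was taken.

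For each gene the genes most like it over the 30 livers were also listed, which share library, depth and diet. Aldh1b1 was most like Aldh1l1, a cytosolic folate enzyme of the aldehyde dehydrogenase family (r = 0.95), and Spc24, a kinetochore subunit (r = 0.94). Aox1 was most like the carboxylesterase Ces1d (r = 0.94) and Pir (r = 0.92). For Aldh3a2 these were Hsd17b4 (r = 0.91) and Hadh (r = 0.88), both enzymes of fatty acid oxidation. For Aldh1a7 they were Dera (r = 0.91) and Glrx5 (r = 0.9), and for Aldh1a1 Gpd1 (r = 0.9) and Cd81 (r = 0.87). Adh5 was nearest to Cox7b (r = 0.87) and Hoga1 (r = 0.84), and Aldh2 to Slc38a10 (r = 0.89) and Psmd3 (r = 0.87). The highest r values were lower for Adh1 (Rpn2, 0.85, and Eif3l, 0.83), Aox3 (Slc22a30 and Lifr, both 0.77) and Adh4 (Gm19950, 0.76, and Odr4, 0.71).

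Other genes of the same families were compared as a list of 22, of which 13 were in the tables. On casein 3 of 13 were higher and 6 lower, beside 11.6% and 13.3% of all genes, with a median log2 fold change of -0.12 against 0.02 over all genes. Aldh1l1 had 4137 ± 631 normalized counts (SD, n = 6) in Cas-20% and 1420 ± 123 in Cas-5% and fell by 1.53 ± 0.1 on the log2 scale (edgeR adjusted p = 1.3e-08). Aldh4a1, which completes proline breakdown, fell by 0.86 ± 0.07 (edgeR adjusted p = 3e-07), and Aldh7a1, of the lysine pathway, by 0.79 ± 0.06 (edgeR adjusted p = 2.3e-07). The 3 genes that rose are named after their values were seen. They were Aldh1l2, the mitochondrial counterpart of Aldh1l1, with 3.71 ± 0.38 log2 units (edgeR adjusted p = 2.7e-06), Aldh18a1, which makes the proline precursor, with 2.2 ± 0.29 (edgeR adjusted p = 3.4e-05), and Aldh16a1 with 0.17 ± 0.06 (edgeR adjusted p = 0.049).

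On soy, against Soy-20% + SAA, 0 of 11 tested members of that list were higher and 3 lower, beside 8.51% and 8.47% of all genes. The 3 were again Aldh1l1 (-0.61 ± 0.09, edgeR adjusted p = 0.001), Aldh4a1 (-0.52 ± 0.09, edgeR adjusted p = 0.0025) and Aldh7a1 (-0.42 ± 0.07, edgeR adjusted p = 0.0021). Aldh1l2 and Aldh18a1, which rose on casein, did not pass the filter on low counts here and were not tested. That does not show that they were unchanged on soy. Without Soy-20% + SAA libraries 3 to 6 all 13 were tested, Aldh1l2 and Aldh18a1 among them. Of the 13, 1 was higher and 1 lower, beside 2.54% of all genes called. The lower one was Aldh1l1 (-0.53 ± 0.1, edgeR adjusted p = 0.014). Aldh4a1 (-0.33 ± 0.1) and Aldh7a1 (-0.25 ± 0.07) did not pass in that setting (edgeR adjusted p of 0.1 and 0.11). Aldh1l1, Aldh4a1 and Aldh7a1 all passed with the GC slope as a covariate. Against Soy-20%, Aldh1l1 and Aldh7a1 were lower, by -0.46 ± 0.08 and -0.26 ± 0.05 log2 units (edgeR adjusted p of 0.0078 and 0.025). Casein minus soy effects passed for 5 of 13, all below 0 (5.49% of all genes), with -0.92 ± 0.13 for Aldh1l1 (edgeR adjusted p = 0.00021). Without libraries 3 to 6 there were 3 that passed (2.27% of all genes called), Aldh1l1 at -1 ± 0.16 (edgeR adjusted p = 0.0011), Aldh7a1 and Aldh4a1. With all libraries the effects of Aldh1l2 and Aldh18a1 were 1.33 ± 0.68 and 1.33 ± 0.57 and did not pass (edgeR adjusted p of 0.21 and 0.14).

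**Figure D4:**
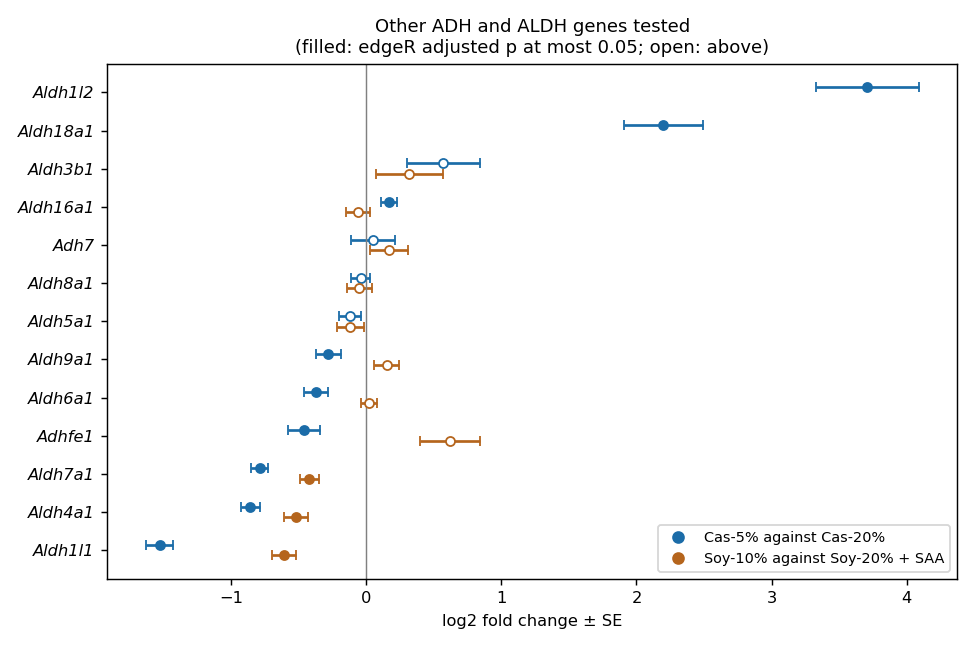
Log2 fold change (horizontal axis, points) with its SE (whiskers) for 13 further genes of the families (rows), on casein (blue) and on soy against Soy-20% + SAA (brown, 11 genes tested). Filled points had an edgeR adjusted p of at most 0.05. With all libraries Aldh1l1, Aldh4a1 and Aldh7a1 were lower in both. Aldh1l2 and Aldh18a1 were higher in Cas-5% and were not tested on soy with all libraries.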

How the data were processed

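Libraries were made with a QuantSeq 3′ mRNA kit from 30 livers. The first deposited table holds raw counts per gene. The second holds a normalized signal, which the authors made by dividing the counts by DESeq2 size factors, with no scaling for gene length. Levels in the text are this signal, called normalized counts. The submitters' processing notes name GRCm38, R 4.0.3 and DESeq2 1.30, and the aligner is not given in the sources used here. Genes in the tables had a total of at least 90 counts over the livers. Of the symbols, 1718 were blank, and 1684 of them were filled from GENCODE M21.

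The genes and lists were chosen with earlier results of these data known. Livers were grouped by labelled diet. Raw counts were tested with edgeR 4.0.16 in R 4.3.3 (filterByExpr, TMM, quasi-likelihood F test) with Benjamini-Hochberg adjustment over all genes tested, at 0.05, on the livers compared. Every fold change is from that fit, on the log2 scale. Its SE was derived as the size of the log2 fold change divided by the square root of F. Sensitivity was checked with DESeq2 1.42.0, RLE size factors, no filter, a replicate block, the GC slope as a covariate (GC of the last 200 bases, genes with a mean of at least 10 counts), 1 fit of 30 livers, other soy controls and leaving out livers. Named were all 10 genes, up to 3 genes of each list with the smallest adjusted p on casein and on soy, and for each of the 10 genes the 2 with the highest Pearson r of log2 CPM (prior count 2). On simulated counts with 200 genes changed 2-fold, edgeR called 178 and 5 unchanged genes of 12076 on casein, and 177 and 8 of 11983 on soy. For the casein minus soy effect these were 148 and 7 of 12532. Promoters and gene positions were read from RefSeq and GENCODE M21. Promoters were aligned with Biopython 1.88, and figures drawn with matplotlib 3.10.9. That each mouse gave a single library makes the mice the replicates.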

Additional observations from a re-analysis of the deposited data

Results flagged for a closer look

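In each of 50 sets of 6 livers (10 genes in 5 diets) the highest and the lowest liver were compared with the rest by Dixon's criterion, for which a gap of 0.625 of the range is the critical value and chance passes about 1 in 20. It was passed by 3. Aldh1b1 was at 1971 normalized counts in Cas-20% liver 2, against 691 to 826 in the other 5 livers, whose mean was 759 ± 48.2 (SD). Aox3 was at 1982 in Soy-10% liver 6, against 2784 to 3262 in the others. Adh1 was at 31732 in Cas-5% liver 6, against 26050 to 27644 in the others. The cause was not tested.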

How the results depend on the processing

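None of the 13 called differences of the 10 genes changed sign under any alternative, while 26 of the 57 not called did in at least 1. Aox1, Aldh1b1 and Aldh1a7 passed in all 18 alternatives on casein, and Aox1 and Aldh1b1 in all 19 on soy against Soy-20% + SAA. In that soy comparison 2 of the 10 genes passed with the GC slope as a covariate and 2 without Soy-20% + SAA libraries 3 to 6, in place of 4, and the genes called in the other lists fell from 21 to 11 and 9. The share of all genes called fell as well, from 17% to 3.26% and 2.54%. For the difference between casein and soy effects, in place of 0, 1 gene passed with DESeq2, with the GC slope and in the fit of 30 livers, and 2 without libraries 3 to 6 and with Soy-20% as control. Of all genes, 4.5% passed with the GC slope and 2.27% without libraries 3 to 6, in place of 8.69%. In the fit of 30 livers 0 genes passed between Soy-10% and Soy-20%, 3 between Soy-20% + SAA and Soy-20%, 3 between Cas-20% and Soy-20% + SAA and 2 between Cas-5% and Soy-10%, and 3 list genes between Soy-10% and Soy-20% in place of 5. DESeq2 called 2 for Soy-20% + SAA against Soy-20%. Leaving out 1 liver at a time gave 0 to 2 genes there, 0 to 3 between Cas-20% and Soy-20% + SAA, 0 to 1 for the difference of effects, and 2 to 7 list genes between Soy-10% and Soy-20%. Between Cas-20% and Soy-20% + SAA, Adh1, Aldh1a1 and Aldh2 passed without Soy-20% + SAA liver 1 and Adh1 without its liver 2. Adh5 passed between Soy-10% and Soy-20% + SAA without liver 1 or 2 of the latter. For the difference of effects, Aldh1b1 passed without Cas-20% liver 3 or 4 or Soy-20% + SAA liver 5 or 6, and Adh1 without Soy-20% + SAA liver 2. The cause of these differences was not tested.

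Replicate numbers did not pair the livers: deviations from the diet means of livers with the same number had correlations between -0.16 and 0.18 over genes, and at most 2 of 6 pairs exceeded 0.1. With the number as a block, 4 genes passed on casein and 4 on soy against Soy-20% + SAA as without it, 1 between Cas-20% and Soy-20% + SAA (Aldh1a1, in place of 0), 1 for the difference of effects (Aldh1b1, in place of 0) and 3 list genes between Soy-10% and Soy-20% in place of 5.

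The lowest raw count of the 10 genes in any liver was 94, for Aldh1b1 in Cas-5%.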

Other observations

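Genes that work beside these enzymes were compared as 3 further lists, by counts alone. Of all genes, 24.9% passed on casein (11.6% higher, 13.3% lower) and 17% on soy against Soy-20% + SAA (8.51% higher, 8.47% lower), which are the shares to read these counts against. Of 9 molybdenum enzyme and cofactor genes, the cofactor on which aldehyde oxidases depend, 0 were higher and 4 lower on casein (median log2 fold change -0.24, 0.02 over all genes), while 0 were higher and 2 lower on soy against Soy-20% + SAA. Suox, the sulfite oxidase that completes the breakdown of sulfur amino acids, had 620 ± 52.6 normalized counts (SD, n = 6) in Cas-20% and 393 ± 30.3 in Cas-5%. It fell by 0.64 ± 0.07 on the log2 scale (edgeR adjusted p = 6.8e-06), while its log2 fold change on soy was -0.11 ± 0.09 (edgeR adjusted p = 0.43), and the difference of both effects passed the test (-0.54 ± 0.12, edgeR adjusted p = 0.0061, and -0.63 ± 0.13, 0.011, without Soy-20% + SAA libraries 3 to 6). Mtarc1 and Mtarc2, which reduce N-hydroxylated compounds, were lower on casein by -0.49 ± 0.07 and -0.28 ± 0.06 and on soy by -0.22 ± 0.06 and -0.27 ± 0.08 log2 units (edgeR adjusted p of 5e-05, 0.0018, 0.03 and 0.041). Without libraries 3 to 6 neither passed on soy (-0.12 ± 0.08 and -0.04 ± 0.08, edgeR adjusted p of 0.49 and 0.87), and 0 of the 9 genes did, with 2.54% of all genes called.

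Of 24 genes of retinoid metabolism and signalling, 5 were higher and 5 lower on casein, and 3 higher and 2 lower on soy. The retinol dehydrogenase gene Rdh16f2 rose by 0.84 ± 0.09 on casein and 0.32 ± 0.08 on soy (edgeR adjusted p of 5.5e-06 and 0.017), whereas Rdh5 fell by 1.08 ± 0.14 and 0.72 ± 0.11 (edgeR adjusted p of 3.1e-05 and 0.0011). Rdh9, at 18.4 ± 6.78 normalized counts in Cas-20%, rose by 1.14 ± 0.25 and 1.3 ± 0.26 (edgeR adjusted p of 0.0032 and 0.0054). Without libraries 3 to 6 the soy values were 0.27 ± 0.1 for Rdh16f2, -0.65 ± 0.14 for Rdh5 and 0.83 ± 0.33 for Rdh9, of which Rdh5 alone passed (edgeR adjusted p of 0.23, 0.027 and 0.23). The retinoic acid receptor gene Rara fell by 0.59 ± 0.1 on casein (edgeR adjusted p = 0.00029), while its soy value was 0.23 ± 0.15 (edgeR adjusted p = 0.28). The difference of both effects was -0.83 ± 0.18 (edgeR adjusted p = 0.0067). Without libraries 3 to 6, 1 gene of this list passed above 0 for that difference and 0 below. Rarg, another receptor gene, is named after its values were seen and rose by 0.54 ± 0.14 on casein (edgeR adjusted p = 0.009).

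Of 21 tested genes of ethanol and acetate use and carbonyl reduction, 3 were higher and 7 lower on casein, and 7 higher and 4 lower on soy. Dcxr, which reduces dicarbonyls and xylulose, fell by 1.32 ± 0.11 and 0.58 ± 0.09 (edgeR adjusted p of 4.4e-07 and 0.0015). Akr1d1, a reductase of bile acid synthesis, fell by 1.06 ± 0.14 and 0.58 ± 0.08 (edgeR adjusted p of 3e-05 and 0.00087). The aldo-keto reductase genes Akr1c14 and Akr1c13 rose on soy by 0.91 ± 0.12 and 0.81 ± 0.13 (edgeR adjusted p of 0.00037 and 0.0014), and Akr1c14 rose by 0.83 ± 0.13 on casein (edgeR adjusted p = 0.00013). Without libraries 3 to 6 the soy values were -0.36 ± 0.1 for Dcxr, -0.51 ± 0.08 for Akr1d1, 0.75 ± 0.12 for Akr1c14 and 0.49 ± 0.1 for Akr1c13, all passing but Dcxr (edgeR adjusted p of 0.082, 0.0066, 0.0052 and 0.02). Over the 4 lists 21 genes passed on soy with all libraries and 9 without Soy-20% + SAA libraries 3 to 6, while the share of all genes called went from 17% to 2.54%.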
